A study of Mus musculus with 16 samples.

Results

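Endothelial cells line every blood vessel of the pancreas, and 10 genes that mark them are described here in pancreatic tissue of 16 mice: Pecam1, Cdh5, Kdr, Flt1, Egfl7, Esam, Plvap, Eng, Tie1 and Emcn. They were taken by gene symbol from a table of 24019 genes, and each of the 10 had 1 entry there. The values are counts of unique molecular identifiers (UMIs), in which each tagged RNA molecule counts once. Of the 10 genes, 7 had enough UMIs to pass the filter on low counts, as did 8236 genes in all. Cdh5, Tie1 and Emcn did not pass and are given by their counts.

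The mice were C57BL/6J littermates of 6 to 8 weeks, in 4 groups of 4. In the first group Adam17ex/ex mice, called Adam17ex here, received 7 hourly intraperitoneal injections of cerulein at 50 µg per kg (2 females and 2 males). In the second, Adam17ex mice received phosphate-buffered saline (PBS) on the same schedule (2 females and 2 males). In the third, wild-type (WT) mice received cerulein (3 females and 1 male), and in the fourth WT mice received PBS (4 females). All were culled 1 h after the last injection. Cerulein is an analogue of cholecystokinin that overstimulates the acinar cells and causes acute pancreatitis. The Adam17ex allele is hypomorphic and present in all cells, so it does not separate vessel cells from other cells, and the WT PBS group holds no male.

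The proteins of these genes do different work in the vessel wall. PECAM1, VE-cadherin (Cdh5) and ESAM hold neighbouring endothelial cells together. KDR, the main signalling receptor for the growth factor VEGF-A, and FLT1, which binds VEGF-A, VEGF-B and placental growth factor and acts largely as a trap, control vessel growth and permeability. TIE1 is a partner of the angiopoietin receptor TEK, and endoglin (Eng) is a co-receptor for ligands of the TGF-β and BMP family. PLVAP builds the diaphragms of fenestrae and caveolae, which are abundant in the capillaries of exocrine and endocrine pancreas, EGFL7 is secreted into the vessel matrix, and endomucin (Emcn) is a surface sialomucin of capillaries and veins. ADAM17 cuts the outer part from many membrane proteins, KDR among them. Such cutting acts on protein and is not read by RNA counts.

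Promoter sequence from RefSeq (build GRCm38.p6) was at hand for 6 of the 10 genes, in 8 promoters, 3 of them of Egfl7. The 250 bases before the start are shown for the 4 receptor genes, 5′ to 3′ on the gene's strand, so that words of the ETS family, transcription factors known to act on endothelial genes, can be compared between them. Capitals mark AGGAAG and CGGAAG or their reverse complements. Flt1 (chr5:147726012-147726261, minus strand) has AGGAAG at 2 places, Kdr (chr5:75978456-75978705, minus strand) has neither word, Tie1 (chr4:118489850-118490099, minus strand) has each word once, and Eng (chr2:32646345-32646594, plus strand) has AGGAAG at 2 places.
Flt1: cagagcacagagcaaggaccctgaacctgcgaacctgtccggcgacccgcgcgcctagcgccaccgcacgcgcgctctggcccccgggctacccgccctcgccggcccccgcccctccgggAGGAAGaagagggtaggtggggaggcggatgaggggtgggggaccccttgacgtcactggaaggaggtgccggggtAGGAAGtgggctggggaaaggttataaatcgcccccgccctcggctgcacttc
Kdr: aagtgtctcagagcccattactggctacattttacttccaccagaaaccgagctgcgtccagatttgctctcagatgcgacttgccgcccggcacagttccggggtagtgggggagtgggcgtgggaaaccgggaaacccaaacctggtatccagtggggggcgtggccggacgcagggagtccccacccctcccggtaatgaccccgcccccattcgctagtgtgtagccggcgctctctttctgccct
Tie1: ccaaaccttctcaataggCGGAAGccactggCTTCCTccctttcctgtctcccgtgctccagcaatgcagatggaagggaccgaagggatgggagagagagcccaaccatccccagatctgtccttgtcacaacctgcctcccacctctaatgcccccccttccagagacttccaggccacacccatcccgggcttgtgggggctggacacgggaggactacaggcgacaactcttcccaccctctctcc
Eng: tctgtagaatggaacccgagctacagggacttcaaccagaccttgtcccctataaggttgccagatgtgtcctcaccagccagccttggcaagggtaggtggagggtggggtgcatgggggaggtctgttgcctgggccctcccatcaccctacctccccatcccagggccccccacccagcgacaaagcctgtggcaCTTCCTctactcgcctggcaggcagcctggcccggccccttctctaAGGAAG
Counting both strands, AGGAAG stood in 6 of the 8 promoters of these genes and in 29.5% of 32851 promoters of the same length. CGGAAG stood in 1 of 8 and in 13.6% of all, and the 2 words do not overlap in the stretches shown. GGGCGG, a GC box, stood in 3 of 8 and in 32.7% of all, and TATAAA in 1 of 8 and in 12.4% of all. Flt1 was the gene with TATAAA, and it also had GGGCGG, as did Kdr and 1 promoter of Egfl7. These are matches of letters, with no binding measured.

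Library depth ran from 455547 to 1476159 UMIs, so 1 UMI was worth 2.20 CPM (counts per 1000000 UMIs of a library) in the shallowest library and 0.677 CPM in the deepest, before scaling. Replicates 1 to 3 of Adam17ex PBS stood apart: they held 455547 to 492878 UMIs, and 7.84% to 9.02% of them fell on the ribosomal RNA gene CT010467.1, against 859573 to 1476159 UMIs and 2.02% to 5.04% in the other 13 libraries. Adam17 itself was counted 15 times in Adam17ex cerulein and 10 times in Adam17ex PBS libraries, against 68 times in WT cerulein and 41 times in WT PBS libraries, a fold change, Adam17ex over WT, of -2.05 ± 0.40 under cerulein (edgeR adjusted p = 0.00138) and -1.21 ± 0.49 under PBS (edgeR adjusted p = 0.210). These 3′ counts need not cover the altered stretch of the allele and so do not check the labels alone. Levels below are CPM scaled with TMM factors, a fold change is cerulein over PBS or Adam17ex over WT on the log2 scale ± SE from edgeR's quasi-likelihood test, and a gene is called at a Benjamini-Hochberg adjusted p under 0.05 over all 8236 genes.

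The 10 genes together were highest in PBS-treated Adam17ex pancreas. Their summed level was 137 ± 21.1 CPM in Adam17ex cerulein, 203 ± 59.0 CPM in Adam17ex PBS, 102 ± 23.1 CPM in WT cerulein and 101 ± 6.22 CPM in WT PBS libraries (SD, n = 4 each). Single libraries lay at 112 to 160 CPM in Adam17ex cerulein, 143 to 279 CPM in Adam17ex PBS, 84.1 to 136 CPM in WT cerulein and 95.3 to 108 CPM in WT PBS. The Adam17ex PBS libraries thus did not overlap with those of WT PBS, and the 2 WT groups overlapped. In bulk tissue, fewer endothelial cells and less RNA of these genes per cell cannot be told apart. The log2 ratio of the summed level, Adam17ex over WT under PBS, was 1.00 over all libraries, 0.62 over females and 0.49 without Adam17ex PBS replicates 1 to 3, which leaves 1 library in that group. Cerulein over PBS gave -0.57 in Adam17ex, -0.16 over females and -0.06 without those 3 libraries, and 0.01 in WT.

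**Figure D1:**
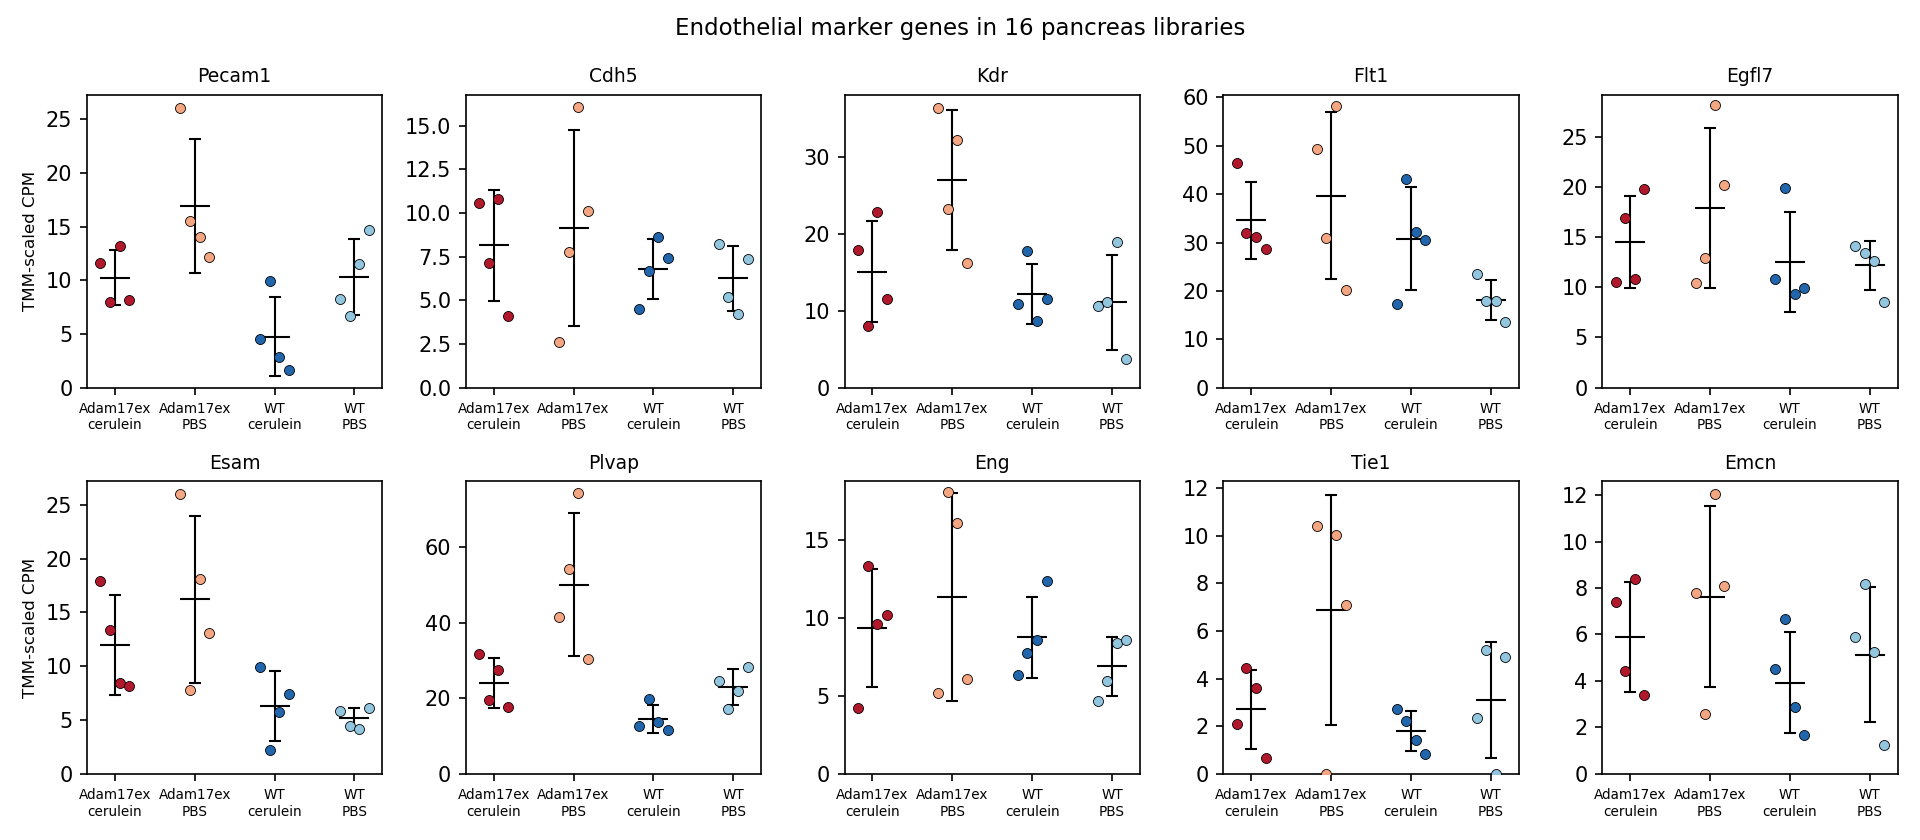
Level of each of the 10 endothelial genes in the 16 libraries, in TMM-scaled CPM on a linear axis starting at 0; each point is 1 library, the horizontal line the mean and the bar ± 1 SD (n = 4). Plvap in Adam17ex PBS lies between 30.3 and 74.3 CPM, above all WT PBS libraries, and Pecam1 in WT cerulein has 3 libraries under 5 CPM.

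Set against WT, Adam17ex pancreas had higher fitted levels of all 7 tested genes under both treatments, but none was called in either comparison by edgeR or by DESeq2. Under PBS 0 of 7 were called and 4 had an unadjusted p under 0.05, where 1.36% of all tested genes were called (0.631% higher and 0.729% lower). The median of the 7 was 1.01, against 0.03 over all tested genes. Under cerulein 0 of 7 were called and 2 had an unadjusted p under 0.05, where 9.7% of all tested genes were called (5.85% higher and 3.85% lower), and the median was 0.31 against 0.01. Under PBS, Plvap and Esam did not overlap between the genotypes and were higher in Adam17ex, a pattern that 4.16% of all tested genes showed (6.24% did not overlap and were lower). Under cerulein all 7 genes overlapped between the genotypes, where 9.64% of all tested genes did not overlap and were higher and 7.92% were lower. With the filter lowered to a minimum count of 3, which admits all 10 genes, all 10 fold changes were positive under both treatments, 0 were called (0.935% of all tested genes under PBS and 6.14% under cerulein), and the medians were 0.58 under PBS and 0.30 under cerulein.

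Cerulein was followed by a called fall of 1 endothelial gene in each genotype, Plvap in Adam17ex and Pecam1 in WT. For neither gene was a difference between the genotypes in this response called. In Adam17ex, Plvap fell and the other 6 tested genes were not called (1 of 7, where 30.3% of all tested genes were called, 14.1% higher and 16.2% lower). All 7 fold changes were negative there, with a median of -0.40 against -0.03 over all tested genes. In WT, Pecam1 fell and the other 6 were not called (1 of 7, where 41.1% of all tested genes were called, 19.8% higher and 21.3% lower). Of the 7 fold changes in WT 4 were positive and 3 negative, with a median of 0.01 against -0.04. Neither count stands above the share over all tested genes. All 7 genes overlapped between cerulein and PBS in both genotypes, whereas 13.8% of all tested genes in Adam17ex and 19.2% in WT did not overlap and were higher, and 11.9% and 20.2% in the same order were lower. At a minimum count of 3 the call was again 1 lower gene of 10 in each genotype, where 21.8% of all tested genes in Adam17ex and 29.9% in WT were called. The difference between the genotypes in the cerulein response was called for 0 of 7 genes by edgeR and by DESeq2, with 0 at an unadjusted p under 0.05, where 6.02% of all tested genes were called (3.75% higher and 2.27% lower). At a minimum count of 3 it was called for 0 of 10, where 3.79% of all tested genes were called.

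**Figure D2:**
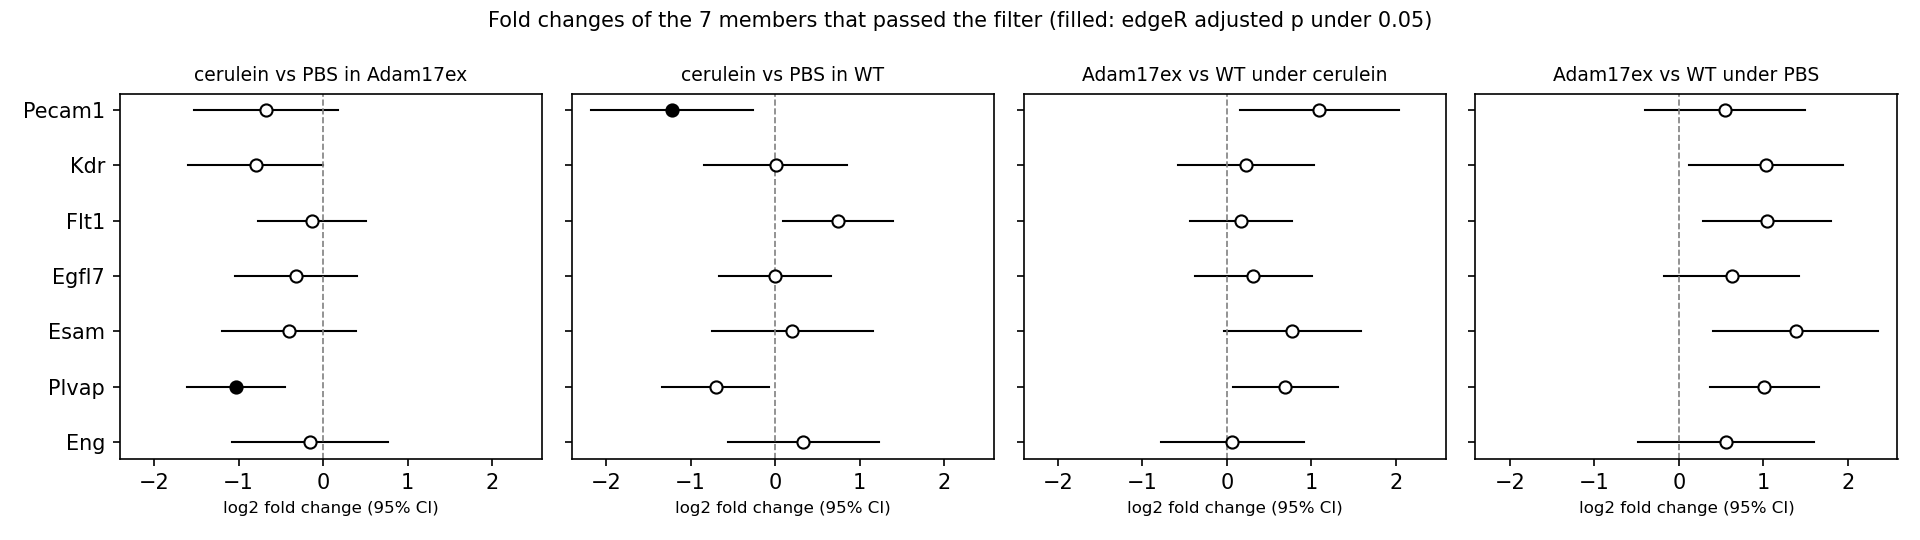
Log2 fold change with 95% confidence interval (x axis) of the 7 genes that passed the filter (y axis) in 4 comparisons; filled points are called by edgeR. Only Plvap under cerulein in Adam17ex (-1.03) and Pecam1 under cerulein in WT (-1.22) are filled, and all points of the 2 genotype comparisons lie right of 0.

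Among the junction genes, Pecam1 (chromosome 11, 106654217 to 106750628, GRCm38) had the one called change in WT. Its level was 4.52, 9.97, 2.87 and 1.65 CPM in WT cerulein libraries, against 8.23, 6.70, 11.5 and 14.7 CPM in WT PBS libraries. The groups overlapped, because 1 cerulein library lay above 2 of the PBS libraries. The fold change was -1.22 ± 0.46 (edgeR adjusted p = 0.0380), on 20 UMIs in WT cerulein and 39 in WT PBS. The call depended on single libraries: leaving out 1 at a time gave -1.85 to -0.91 and lost it in 8 of 16 cases, with adjusted p from 0.00435 to 0.144. In all, Pecam1 was not called in 13 of 26 other fits, among them DESeq2 (adjusted p = 0.0520), no filter on low counts (edgeR adjusted p = 0.0564), a replicate block (edgeR adjusted p = 0.0594) and female libraries (edgeR adjusted p = 0.0955). Thinned to equal depth, it did not pass the filter. In Adam17ex, Pecam1 was at 11.6, 8.00, 13.2 and 8.17 CPM under cerulein, against 26.0, 15.5, 14.1 and 12.1 CPM under PBS. It was not called there, at -0.68 ± 0.41 (edgeR adjusted p = 0.226). The 2 responses differed by 0.55 ± 0.61, Adam17ex minus WT, with a 95% confidence interval of -0.72 to 1.82. Under cerulein, Pecam1 stood at 1.10 ± 0.45 in Adam17ex over WT (edgeR adjusted p = 0.137), and without WT cerulein replicate 2, its highest library in that group, at 1.65 (edgeR adjusted p = 0.0303). This genotype difference was not called in 25 of 26 other fits.

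Esam (chromosome 9, 37528078 to 37538319), an adhesion molecule found at endothelial tight junctions, had the largest fitted genotype difference of the 7 under PBS. Its level was 26.0, 7.75, 18.1 and 13.1 CPM in Adam17ex PBS libraries, against 5.88, 4.47, 4.20 and 6.13 CPM in WT PBS libraries. All 4 Adam17ex libraries were above all 4 of WT, on 35 and 20 UMIs in all. No WT PBS library held more than 6 UMIs of Esam, so it passed the filter on low counts through other groups, mostly Adam17ex. The filter thus favoured a positive genotype difference for Esam, and with it the median of the 7. The fold change of Esam was 1.38 ± 0.47 (edgeR adjusted p = 0.128). It passed in the fit without sex as a covariate, at 1.61 (edgeR adjusted p = 0.0384), and was not called in 25 of 26 other fits. Under cerulein the level was 17.9, 13.3, 8.40 and 8.17 CPM in Adam17ex, against 9.95, 2.22, 5.73 and 7.44 CPM in WT. There the groups overlapped through 1 WT library, and the fold change was 0.78 ± 0.39 (edgeR adjusted p = 0.234). Cerulein over PBS gave -0.40 ± 0.38 in Adam17ex and 0.21 ± 0.46 in WT, neither of them called.

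Cdh5 (chromosome 8, 104101625 to 104144511), the endothelial cadherin of adherens junctions, had 111 UMIs in all. It averaged 8.14 ± 3.18 CPM in Adam17ex cerulein, 9.13 ± 5.59 CPM in Adam17ex PBS, 6.80 ± 1.72 CPM in WT cerulein and 6.25 ± 1.86 CPM in WT PBS libraries (SD, n = 4 each). The widest spread was in Adam17ex PBS, at 2.60, 7.75, 16.1 and 10.1 CPM. In exact two-sided permutation tests of log2(CPM + 1), the p was 0.943 for cerulein in Adam17ex, 0.686 for cerulein in WT, 0.600 between genotypes given cerulein and 0.571 between genotypes given PBS. With 4 libraries against 4 such a test cannot go below 0.0286, and over the 12 tests of Cdh5, Tie1 and Emcn no adjusted p was under 0.748.

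Both VEGF receptor genes had positive fold changes in Adam17ex over WT under PBS that did not pass. Kdr (chromosome 5, 75932827 to 75978458) was at 36.4, 23.2, 32.1 and 16.2 CPM in Adam17ex PBS, against 10.6, 11.2, 18.9 and 3.68 CPM in WT PBS. The groups overlapped in 1 library each. The fold change was 1.03 ± 0.44 (edgeR adjusted p = 0.228). Flt1 (chromosome 5, 147561604 to 147726011) was at 49.4, 31.0, 58.3 and 20.2 CPM in Adam17ex PBS, against 23.5, 17.9, 17.8 and 13.5 CPM in WT PBS. Of the Adam17ex libraries 3 lay above all of WT, and the fold change was 1.04 ± 0.36 (edgeR adjusted p = 0.139). Without Adam17ex PBS replicate 4, the lowest of its group for both genes, Flt1 passed at 1.49 (edgeR adjusted p = 0.0215). That was 1 of 27 other fits, and in 26 Flt1 was not called.

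Neither Kdr nor Flt1 was called under cerulein in WT. The 95% confidence intervals, 0.09 to 1.40 for Flt1 and -0.84 to 0.85 for Kdr, overlapped, and the 2 responses were not compared by a test. Flt1 was at 17.2, 43.2, 32.2 and 30.6 CPM in WT cerulein libraries, above all WT PBS libraries in 3 of 4 cases. Its fold change was 0.74 ± 0.31 and just missed the threshold (edgeR adjusted p = 0.0621). It passed in 11 of 27 other fits, among them scaling without digestive enzyme genes (0.78, edgeR adjusted p = 0.0497), female libraries (0.97, edgeR adjusted p = 0.00719) and the fit without WT cerulein replicate 1 (0.97, edgeR adjusted p = 0.0112). Kdr was at 10.9, 17.7, 8.60 and 11.6 CPM in WT cerulein, within the range of WT PBS, with a fold change of 0.01 ± 0.41. In Adam17ex, Kdr was at 17.9, 8.00, 22.8 and 11.6 CPM under cerulein, and all 4 lay below 3 of the 4 PBS libraries. Its fold change there was -0.80 ± 0.39 (edgeR adjusted p = 0.121). Flt1 was at 46.4, 32.0, 31.2 and 28.6 CPM in Adam17ex cerulein, inside the range of Adam17ex PBS, at -0.14 ± 0.31 (edgeR adjusted p = 0.773). The cerulein response of Flt1, Adam17ex minus WT, was -0.88 ± 0.44 (edgeR adjusted p = 0.254; 95% confidence interval -1.80 to 0.04). Counts are per gene, and GENCODE M21 lists 2 coding transcripts of Flt1 whose 3′ ends lie 73555 bp apart, so the full-length receptor and shorter secreted forms are not told apart.

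Of the other receptor genes, Eng (chromosome 2, 32646595 to 32682669) averaged 9.34 ± 3.78 CPM in Adam17ex cerulein, 11.4 ± 6.67 CPM in Adam17ex PBS, 8.77 ± 2.59 CPM in WT cerulein and 6.91 ± 1.90 CPM in WT PBS (SD, n = 4 each). In Adam17ex PBS it split into 2 libraries at 5.20 and 6.06 CPM and 2 at 18.1 and 16.1 CPM. Its fold changes ran from -0.16 to 0.56 over the 4 comparisons, and none passed. Tie1 (chromosome 4, 118471191 to 118490061) had 48 UMIs in all, in 14 of 16 libraries. It was at 10.4, 0, 10.0 and 7.07 CPM in Adam17ex PBS, so 3 of 4 libraries were above the highest of any other group, 5.21 CPM in WT PBS. Those 3 libraries held 4, 5 and 7 UMIs of Tie1, and the WT PBS library held 7, so the ranking rests on depth as well as on counts. The exact permutation p for Tie1 in Adam17ex over WT under PBS was 0.457, with the library at 0 included.

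Plvap (chromosome 8, 71497765 to 71511752), the diaphragm gene, had the clearest cerulein response of the 10 in Adam17ex. It was at 31.6, 19.6, 27.6 and 17.7 CPM in Adam17ex cerulein, against 41.6, 54.2, 74.3 and 30.3 CPM in Adam17ex PBS. The groups overlapped by 1 library on each side. The fold change was -1.03 ± 0.28 (edgeR adjusted p = 0.00765), on 101 and 104 UMIs. It rests on the Adam17ex PBS group: without replicate 3, the highest, the value was -0.70 (edgeR adjusted p = 0.0878), without replicates 1 to 3 it was -0.30 (edgeR adjusted p = 0.674), and over females it was -0.67 (edgeR adjusted p = 0.251). With counts thinned to equal depth it was -0.98 (edgeR adjusted p = 0.0555).

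In WT, Plvap was at 12.7, 19.9, 13.6 and 11.6 CPM under cerulein, against 24.7, 17.1, 22 and 28.2 CPM under PBS. Of the 4 cerulein libraries 3 lay below all PBS libraries. The fold change was -0.70 ± 0.31 and did not pass (edgeR adjusted p = 0.0693). It did without WT cerulein replicate 2 (-0.90, edgeR adjusted p = 0.0352), and it was not called in 26 of 27 other fits. The 2 responses differed by -0.33 ± 0.42, with a 95% confidence interval of -1.19 to 0.54. Between genotypes under PBS, Plvap had the smallest adjusted p of the 7 genes, at 1.01 ± 0.31 (edgeR adjusted p = 0.0931). All Adam17ex PBS libraries were above all WT PBS libraries. The value passed without sex as a covariate (1.10, edgeR adjusted p = 0.0266) and without Adam17ex PBS replicate 4 (1.33, edgeR adjusted p = 0.0232). Those were 2 of 27 other fits, and in 25 it was not called. Under cerulein the genotype difference was 0.69 ± 0.30 (edgeR adjusted p = 0.160).

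Egfl7 (chromosome 2, 26580014 to 26593120) had no called change in any comparison. It averaged 14.5 ± 4.57 CPM in Adam17ex cerulein, 17.9 ± 7.98 CPM in Adam17ex PBS, 12.5 ± 4.99 CPM in WT cerulein and 12.2 ± 2.47 CPM in WT PBS (SD, n = 4 each). In WT the cerulein response was -0.00 ± 0.32, with a 95% confidence interval of -0.67 to 0.66, and in Adam17ex it was -0.32 ± 0.35. Emcn (chromosome 3, 137341067 to 137432185) had 81 UMIs and averaged 5.91 ± 2.37 CPM in Adam17ex cerulein, 7.63 ± 3.89 CPM in Adam17ex PBS, 3.92 ± 2.16 CPM in WT cerulein and 5.14 ± 2.90 CPM in WT PBS (SD, n = 4 each). Its smallest exact permutation p was 0.257, between genotypes given cerulein.

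The make-up of the endothelial signal can be read without any scaling, as the share of 1 gene among the UMIs of all 10 in a library. These shares were chosen after the values had been seen. Plvap took 17.4% ± 2.19 in Adam17ex cerulein, 24.6% ± 5.48 in Adam17ex PBS, 14.1% ± 1.30 in WT cerulein and 22.7% ± 4.71 in WT PBS (SD, n = 4 each). In WT the 4 cerulein libraries lay below the 4 PBS libraries (exact two-sided permutation p = 0.0286, the smallest possible). In Adam17ex the corresponding exact permutation p was 0.0571, and between genotypes given cerulein it was 0.0286, with all Adam17ex libraries above all WT libraries. Flt1 took 25.2% ± 3.12 in Adam17ex cerulein, 18.9% ± 3.83 in Adam17ex PBS, 29.7% ± 6.26 in WT cerulein and 17.9% ± 3.27 in WT PBS (SD, n = 4 each). The exact permutation p for cerulein was 0.0571 in both genotypes. Pecam1 took 7.45% ± 1.14 in Adam17ex cerulein, 8.62% ± 2.87 in Adam17ex PBS, 4.37% ± 2.47 in WT cerulein and 10.2% ± 3.75 in WT PBS (SD, n = 4 each). Adjusted over the 12 tests of these 3 shares, the smallest p was 0.114, so no share passed.

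**Figure D3:**
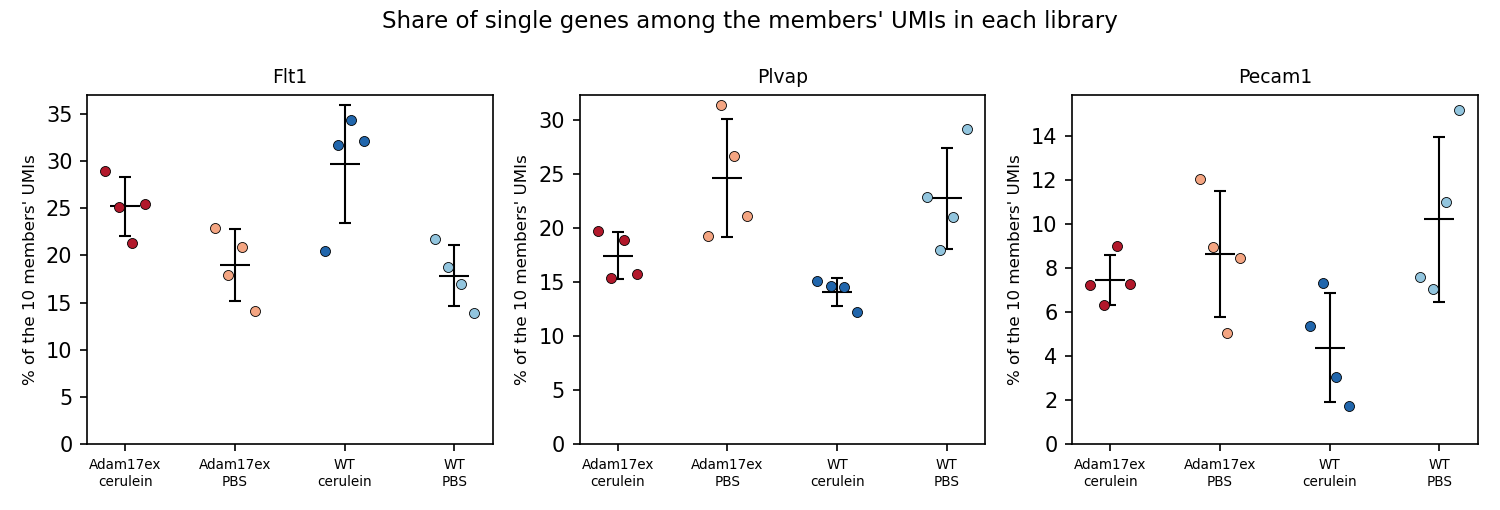
Share of Flt1, Plvap and Pecam1 among the UMIs of the 10 endothelial genes, in percent, per library; points are libraries, lines the mean and bars ± 1 SD (n = 4). The mean share of Flt1 is higher and that of Plvap lower under cerulein in both genotypes (29.7% against 17.9% and 14.1% against 22.7% in WT), and no difference passed after adjustment.

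Within groups the 10 genes did not follow each other closely. Over the 16 libraries, with group means removed from log2(CPM + 1), 30 of 45 pairs had a positive Pearson correlation, with a median of 0.13 and a range of -0.47 to 0.65. For the 7 tested genes 12 of 21 were positive and the median was 0.06. These points share library depth, and the counts are low. Among 6936 other genes with a mean count of at least 10, those closest to the mean deviation of the 7 genes were Myo9b (Pearson r = 0.85), Iigp1 (0.84), Mmp14 (0.83), Sptbn1 (0.82), Glg1 (0.82), Tcof1 (0.80), Mllt10 (0.79) and Tln1 (0.79), each over 16 libraries. These genes have the highest of 6936 correlations and were chosen by their values. Whether a search over so many genes gives such values by chance was not tested. None of these genes is on the vascular lists used here. Of the other endothelial genes with enough counts, Ptprb came closest at 0.54, Ly6c1 had 0.34, Ets1 0.17, Cd34 0.10 and Cav1 -0.05.

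Of 26 further endothelial genes 8 were tested. Under cerulein in Adam17ex 4 of 8 fell and 0 rose, where 16.2% of all tested genes fell and 14.1% rose. The median was -0.71, against -0.03 over all tested genes. The fallen genes were Cav1 (caveolin 1, the coat of caveolae) at -2.09 ± 0.47, Ptprb (the phosphatase VE-PTP) at -1.31 ± 0.33, Mmrn2 (a protein of the vessel matrix) at -1.32 ± 0.43 and Cd34 (a sialomucin of capillaries) at -0.85 ± 0.32. Cav1 was at 20.0, 9.78, 12 and 6.13 CPM in Adam17ex cerulein, against 36.4, 33.6, 84.4 and 43.4 CPM in Adam17ex PBS, with no overlap. Cav1 is also expressed by adipocytes and fibroblasts. Leaving out 1 library lost the call of Cd34 in 11 of 16 cases and of Mmrn2 in 6, and without Adam17ex PBS replicates 1 to 3 none of the 4 was called.

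In WT 1 of the 8 rose and 1 fell under cerulein, where 19.8% of all tested genes rose and 21.3% fell. Ptprb fell with a fold change of -1.58 ± 0.34, to 7.24, 7.75, 10.0 and 4.96 CPM in cerulein libraries, against 23.5, 20.1, 26.2 and 15.9 CPM in PBS libraries, again with no overlap. Ptprb thus fell in both genotypes. Ets1, a transcription factor of endothelium that lymphocytes and other cells also express, rose by 1.66 ± 0.42 to 33.5, 29.9, 26.5 and 24.0 CPM in WT cerulein, against 16.5, 11.9, 2.10 and 3.68 CPM in WT PBS. Under cerulein Ets1 was at 12.7, 4.44, 9.61 and 10.2 CPM in Adam17ex, below every WT cerulein library, with a fold change of -1.63 ± 0.40 (edgeR adjusted p = 0.00989), a call lost without WT cerulein replicate 1 (-1.51, edgeR adjusted p = 0.0795). Cd34 was higher in Adam17ex than in WT under cerulein by 1.26 ± 0.35 (edgeR adjusted p = 0.0241), at 25.3, 16.9, 15.6 and 20.4 CPM in Adam17ex, against 12.7, 9.97, 5.01 and 5.79 CPM in WT. That call was lost without any 1 of 4 libraries. Under PBS the median of the 8 was 0.70 in Adam17ex over WT, and Cd34, with the smallest adjusted p, stood at 1.40 (edgeR adjusted p = 0.0509).

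Among 21 genes of the VEGF, angiopoietin and BMP pathways, 20 were in the table and 11 were tested. Vegfa, the ligand of both KDR and FLT1, was higher in Adam17ex than in WT under cerulein by 1.54 ± 0.21 (edgeR adjusted p = 3.32e-05). Its level was 113, 93.3, 85.2 and 96.0 CPM in Adam17ex cerulein, against 30.8, 35.4, 35.8 and 30.6 CPM in WT cerulein, and the groups lie far apart. Leaving out each library in turn gave 1.43 to 1.60, and all 16 fits kept the call. Under PBS the level was 91.0, 80.0, 72.3 and 41.4 CPM in Adam17ex, against 38.8, 29.8, 30.4 and 42.9 CPM in WT, where 1 Adam17ex library overlapped. That difference was 0.94 ± 0.25 and did not pass (edgeR adjusted p = 0.0541). Cerulein over PBS gave 0.50 ± 0.21 for Vegfa in Adam17ex (edgeR adjusted p = 0.0728) and -0.09 ± 0.23 in WT (edgeR adjusted p = 0.783).

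The other 2 ligands of FLT1 moved with cerulein. Vegfb fell in both genotypes, with fold changes of -2.94 ± 0.41 in Adam17ex and -1.59 ± 0.34 in WT. It was at 4.22, 3.55, 6.00 and 2.04 CPM in Adam17ex cerulein, against 31.2, 46.5, 10.0 and 33.3 CPM in Adam17ex PBS, and at 8.14, 6.65, 10.7 and 8.27 CPM in WT cerulein, against 25.9, 22.3, 37.8 and 25.7 CPM in WT PBS. In neither genotype did the groups overlap. Pgf, placental growth factor, went in opposite directions. It fell in Adam17ex to 4.22, 2.67, 8.40 and 15 CPM under cerulein, against 13, 54.2, 38.2 and 16.2 CPM under PBS (-1.82 ± 0.49, edgeR adjusted p = 0.00748), a call lost without Adam17ex PBS replicate 2 (-1.40, edgeR adjusted p = 0.0505). It rose in WT to 38.9, 23.3, 29.4 and 36.4 CPM under cerulein, against 10.6, 8.19, 26.2 and 18.4 CPM under PBS (1.08, edgeR adjusted p = 0.0411). The difference between the responses, Adam17ex minus WT, was -2.90 ± 0.65 (edgeR adjusted p = 0.00967), and leaving out each library in turn kept it at -3.55 to -2.45. Without Adam17ex PBS replicates 1 to 3 the difference was -2.02 (edgeR adjusted p = 0.206), and over females it was -2.45 (edgeR adjusted p = 0.143). Under cerulein Pgf was lower in Adam17ex than in WT, with a fold change of -1.97 ± 0.44 (edgeR adjusted p = 0.00481), a call lost without WT cerulein replicate 1 (-1.71, edgeR adjusted p = 0.0515).

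Angpt1, the agonist of the TEK receptor that TIE1 modulates, fell in both genotypes. It had 4 UMIs over the Adam17ex cerulein libraries and 29 over the Adam17ex PBS libraries (-3.68 ± 0.71, edgeR adjusted p = 0.000445), and 6 over WT cerulein and 53 over WT PBS libraries (-3.24 ± 0.62, edgeR adjusted p = 0.000217). Nrp1, a co-receptor of KDR that many other cells also express, rose in both, by 1.34 ± 0.28 in Adam17ex and 1.40 ± 0.27 in WT. Epas1, a hypoxia-inducible factor of endothelium, fell in both, with -1.21 ± 0.34 in Adam17ex and -1.12 ± 0.37 in WT, where leaving out cerulein replicate 3 lost the call (-0.75). Tgfbr2, a TGF-β receptor, rose in WT (1.03, edgeR adjusted p = 0.0324). In all, 1 of 11 rose and 4 fell in Adam17ex, where 14.1% of all tested genes rose and 16.2% fell. In WT 3 of 11 rose and 3 fell, where 19.8% rose and 21.3% fell. Between genotypes under cerulein 1 of 11 was higher and 1 lower, where 5.85% of all tested genes were higher and 3.85% lower. Epas1 in Adam17ex, and Tgfbr2 and Pgf in WT, were named after their values were seen.

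Acvrl1 and Id1 were the genes of this list called between genotypes under PBS, with 2 of 11 higher in Adam17ex and 0 lower, where 0.631% of all tested genes were higher and 0.729% lower. Acvrl1 encodes ALK1, the receptor to which endoglin presents BMP9, and Id1 is a target of BMP signalling. Acvrl1 was at 13, 20.7, 14.1 and 12.1 CPM in Adam17ex PBS, against 4.70, 5.21, 2.10 and 3.68 CPM in WT PBS (2.11 ± 0.46, edgeR adjusted p = 0.0298). Id1 was at 13, 28.4, 18.1 and 13.1 CPM in Adam17ex PBS, against 7.05, 4.47, 3.15 and 3.68 CPM in WT PBS (2.01 ± 0.47, edgeR adjusted p = 0.0385). Neither overlapped between the genotypes. Both calls were fragile: leaving out 1 library lost that of Acvrl1 in 5 of 16 cases and that of Id1 in 7, and both were lost without Adam17ex PBS replicates 1 to 3, where Acvrl1 had 1.56 (edgeR adjusted p = 0.515) and Id1 an adjusted p of 0.543.

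**Figure D4:**
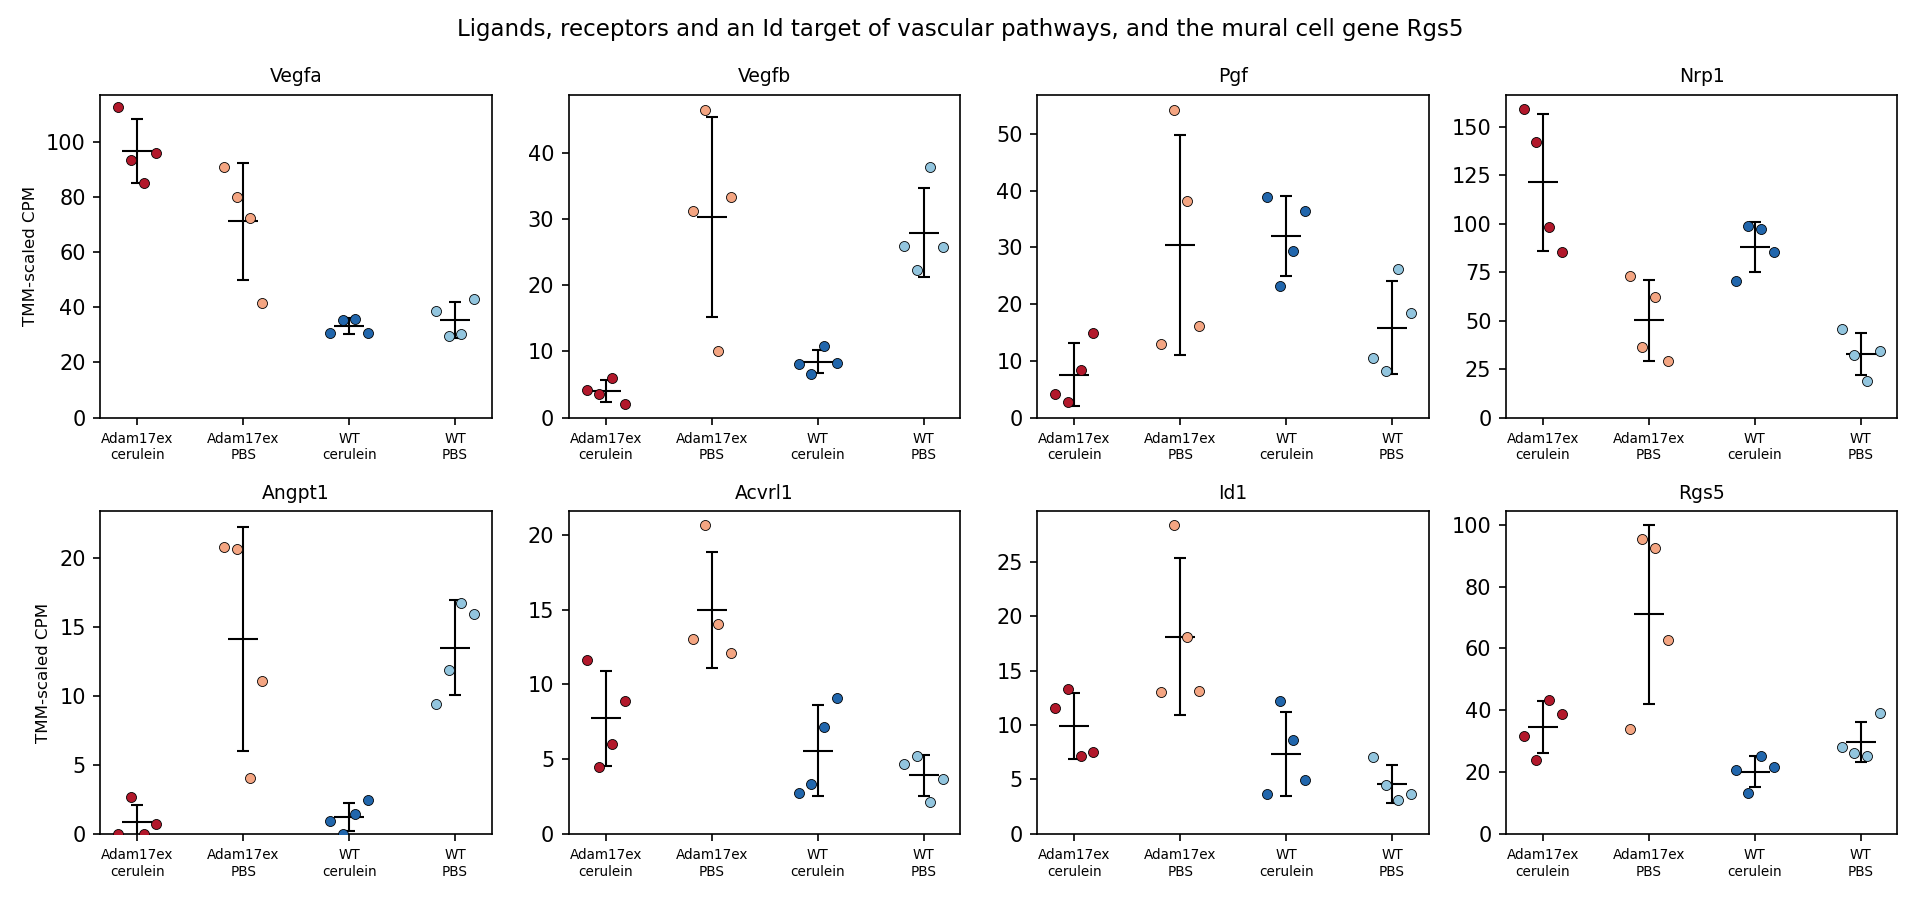
Level in TMM-scaled CPM, on linear axes starting at 0, of 7 genes of the VEGF, angiopoietin and BMP pathways and of the mural cell gene Rgs5 in the 16 libraries; points are libraries, lines the mean and bars ± 1 SD (n = 4). Vegfa in Adam17ex cerulein (85.2 to 113 CPM) lies above all WT libraries, and Pgf is low in Adam17ex cerulein and high in WT cerulein.

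Of 15 genes of endothelial activation 4 were tested, and most of the adhesion molecules that recruit leukocytes were too low. Sele (E-selectin) had 0 UMIs in both cerulein groups, Vcam1 had 4 in Adam17ex cerulein and 13 in WT cerulein, and Icam1 had 22 in Adam17ex cerulein and 24 in WT cerulein libraries. Procr, the endothelial protein C receptor, which epithelial cells can also express, rose under cerulein in both genotypes. It was at 170, 153, 90.0 and 27.2 CPM in Adam17ex cerulein, against 23.4, 18.1, 12.1 and 4.04 CPM in Adam17ex PBS (3.14 ± 0.52, edgeR adjusted p = 9.30e-05). In WT it was at 27.1, 39.9, 50.9 and 48.8 CPM under cerulein, against 10.6, 22.3, 14.7 and 24.5 CPM under PBS (1.17 ± 0.46, edgeR adjusted p = 0.0427). The WT call was lost without any 1 of 6 libraries. Under cerulein Procr was higher in Adam17ex than in WT by 1.33 ± 0.40 (edgeR adjusted p = 0.0372), a call lost without any 1 of 6 libraries. In all, this difference was not called in 9 of 27 other fits, DESeq2 among them. The responses differed by 1.96 ± 0.72, which did not pass (edgeR adjusted p = 0.105). Ccl2, a chemokine for monocytes, rose in WT by 2.52 ± 0.59. Of its 18 UMIs in WT PBS libraries 16 were in replicate 2, and without that library the value was 4.87. In Adam17ex, Ccl2 had 42 UMIs under cerulein and 8 under PBS and was not called. A difference between the genotypes in the cerulein response was called for 0 of the 4 tested activation genes. Of 12 genes of flow response and cell junctions 8 were tested, of which 2 rose under cerulein in Adam17ex and 5 in WT, where 14.1% of all tested genes rose in Adam17ex and 19.8% in WT. A difference between these responses was called for 0 of the 8 by edgeR and by DESeq2, with 2 at an unadjusted p under 0.05. F11r (junction adhesion molecule A) and Jup (plakoglobin) rose in both, at 0.86 and 1.48 in Adam17ex and at 1.63 and 1.38 in WT, and epithelial cells express both of these. Of 12 Notch pathway genes 5 were tested. Under cerulein 1 rose and 1 fell in Adam17ex, and 2 rose and 1 fell in WT, where 14.1% of all tested genes rose and 16.2% fell in Adam17ex, and 19.8% rose and 21.3% fell in WT. The fallen gene in both was Rbpj, and leaving out 1 library lost its call in 15 of 16 cases in Adam17ex and in 5 of 16 in WT. DESeq2 called 0 of the 5 Notch genes lower in either genotype. In Adam17ex Rbpj was not called in 23 of 26 other fits. Hes1 rose in both genotypes, with 1.06 in Adam17ex and 1.51 in WT. Without Adam17ex PBS replicates 1 to 3, neither Hes1 (0.65) nor F11r (0.56) was called in Adam17ex. Sele, Vcam1 and Icam1 were named after their values were seen.

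Among stromal markers, 1 of 1 tested mural gene and 1 of 6 tested fibroblast genes were called higher in Adam17ex over WT under PBS. Of 2 lymphatic, 5 macrophage and 5 adipocyte genes tested, 0 were called. Of all tested genes 0.631% were higher there and 0.729% lower. The mural cell gene Rgs5, a marker of pericytes, was at 33.8, 95.5, 92.4 and 62.6 CPM in Adam17ex PBS, against 28.2, 26.1, 25.2 and 39.2 CPM in WT PBS (1.32 ± 0.29, edgeR adjusted p = 0.0298). That call was lost without any 1 of 5 libraries and without Adam17ex PBS replicates 1 to 3 (1.08, edgeR adjusted p = 0.323). Rgs5 fell under cerulein in Adam17ex, with -1.04 ± 0.26 (edgeR adjusted p = 0.00486), a call lost without Adam17ex PBS replicate 3 (-0.77, edgeR adjusted p = 0.0502) and without replicates 1 to 3 (-0.83). It was not called in WT (-0.48 ± 0.29, edgeR adjusted p = 0.193). Rgs5 was the 1 tested gene of 10 mural genes, whose summed level was 109 to 227 CPM in Adam17ex PBS and 51.4 to 77.2 CPM in WT PBS. The 7 fibroblast genes summed to 520 to 1489 CPM in Adam17ex PBS and 218 to 588 CPM in WT PBS, the 6 lymphatic genes to 35.4 to 98.4 CPM and 19.9 to 58.1 CPM, the 7 macrophage genes to 148 to 1003 CPM and 61.9 to 379 CPM, and the 6 adipocyte genes to 221 to 1069 CPM and 156 to 607 CPM in the same order. None of these genes was at 0 over either PBS group, and the ranges of all these sums but the mural one overlapped between the genotypes. Adam17ex PBS replicate 3 was the highest library of the series for the endothelial, mural, fibroblast, lymphatic, macrophage and adipocyte sums, and had the lowest share of digestive enzyme UMIs in its group, at 37.3%. The part of these cell types, and of depth, in the endothelial differences was not tested.

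Under cerulein the mural sums did not reach those of Adam17ex PBS. The mural sum was 53.3 to 82.8 CPM in Adam17ex cerulein, against 109 to 227 CPM in Adam17ex PBS, and the fibroblast sum was 398 to 564 CPM, against 520 to 1489 CPM. Of 6 tested fibroblast genes edgeR called 4 lower in Adam17ex and 1 in WT, and DESeq2 3 and 1. Of 5 tested macrophage genes edgeR called 4 lower in Adam17ex and 1 in WT, and DESeq2 4 and 0. By edgeR 16.2% of all tested genes fell in Adam17ex and 21.3% in WT. Marker genes of some other cell types were called lower as well. Of 5 tested adipocyte genes edgeR called 4 lower in Adam17ex (median -2.49) and 5 in WT (median -4.77), and DESeq2 3 and 4. Of 2 tested B cell genes edgeR called 2 lower in each genotype, and DESeq2 2 in Adam17ex and 1 in WT. The 6 B cell genes summed to 62.4 to 715 CPM in Adam17ex PBS, against 26.7 to 86.4 CPM in Adam17ex cerulein. In WT PBS libraries they summed to 269, 464, 48.3 and 51.5 CPM, against 24.4 to 67.6 CPM in WT cerulein. Of 5 tested red cell genes edgeR and DESeq2 called 0 in Adam17ex (median -0.59; 0 at an unadjusted p under 0.05), and in WT edgeR called 5 lower (median -1.86) and DESeq2 1. Of 7 tested islet genes 6 fell in Adam17ex by edgeR and 5 by DESeq2 (median -1.87). In WT both tools called 0 (median -0.63), with 0 at an unadjusted p under 0.05. A difference between these responses was called for 0 of 7 by both tools, with 1 at an unadjusted p under 0.05. The islet genes summed to 1749 to 6135 CPM in Adam17ex cerulein, against 5058 to 21996 CPM in Adam17ex PBS, the comparison in which Plvap was called. The part of these cell types in the fall of Plvap in Adam17ex and of Pecam1 in WT was not tested. In WT the mural sum was 41.3 to 51.6 CPM under cerulein, against 51.4 to 77.2 CPM under PBS. Beside the endothelial genes the digestive enzymes took 42.3% to 46.3% of UMIs in Adam17ex cerulein, 37.3% to 47.4% in Adam17ex PBS, 34.3% to 42.1% in WT cerulein and 45.0% to 49.4% in WT PBS.

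**Figure D5:**
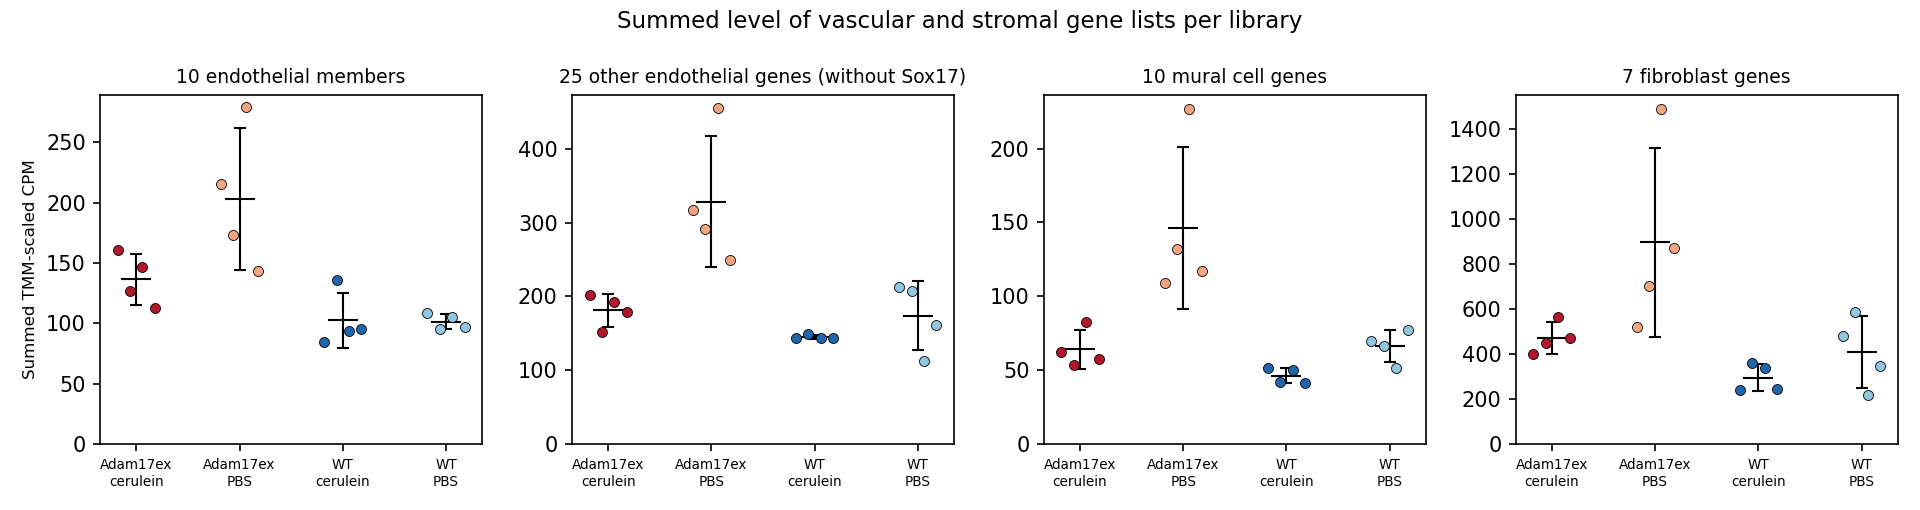
Summed level in TMM-scaled CPM per library of the 10 endothelial genes, of 25 other endothelial genes (the list without Sox17), of 10 mural genes and of 7 fibroblast genes; points are libraries, lines the mean and bars ± 1 SD (n = 4), and each axis starts at 0. In all 4 panels the mean is highest in Adam17ex PBS, where the endothelial sum runs from 143 to 279 CPM.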

How the data were processed

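Pancreatic RNA of 16 mice was profiled with poly(A)-primed multiplexed libraries (30 ng RNA, a 10 bp UMI, 101 bp sense reads), per the labels' protocols, so values come from 3′ ends. The deposited table holds UMI counts per gene, whole and not normalized. GRCm38 is the build, and edgeR 3.36.0, limma 3.50.0 and R 4.1.2 are among the tools, per the submitters' processing notes. For alignment, counting and the merging of duplicate UMIs, tools are not given in the sources. The ribosomal RNA gene CT010467.1 stayed in the library totals.

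From these counts, edgeR 4.0.16 (R 4.3.3) was run with filterByExpr at a minimum count of 10, which kept 8236 of 24019 genes, TMM factors, a coefficient per group and sex, and the quasi-likelihood test (11 residual degrees of freedom, Benjamini-Hochberg adjusted p under 0.05). The 5 comparisons were cerulein over PBS in each genotype, Adam17ex over WT under each treatment, and their interaction. Cdh5, Tie1 and Emcn were compared by exact two-sided permutation of log2(CPM + 1) over 70 relabellings. DESeq2 1.42.0, other filters and scalings, thinning to equal depth, a replicate block, female libraries and omission of libraries served as alternatives. The steps were tested on simulated counts.

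Grouping follows the labels. Single mice are taken as replicates, and replicates of a group differed by more than counting error. The members and lists were chosen with earlier results of these data known. Genes of a list are named if they had 1 of its 4 smallest p-values in a comparison; others are said to be chosen after their values were seen.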

Additional observations from a re-analysis of the deposited data

Results flagged for a closer look

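In 5 of the 200 groups of 4 libraries examined for the endothelial genes and vascular lists, 1 library stood far from the other 3. The gap took most of the group's range of log2(CPM + 1) (Dixon's test at 95%). Chance alone gives about 1 in 20 such groups, or 10 here. Levels below are in CPM, and each gap is a part of the range on that log2 scale. Tie1 was at 0 CPM in Adam17ex PBS replicate 2 against 7.07 to 10.4 CPM in the other 3 (gap 0.858 of the log2 range). That is 0 UMIs in a library where 1 UMI is worth over 2 CPM. The chemokine gene Ccl21a was at 56.3 CPM in Adam17ex PBS replicate 3 against 19.2 to 20.8 CPM in the others (0.926). Klf2, a flow-induced transcription factor of endothelium, was at 12.9 CPM in WT PBS replicate 1 against 6.70 to 7.35 CPM (0.863). The Notch effector gene Rbpj was at 4.13 CPM in WT cerulein replicate 4 against 6.65 to 7.24 CPM (0.843). Tjp1 (ZO-1) was at 62.2 CPM in Adam17ex cerulein replicate 1 against 26.4 to 29.3 CPM (0.879). The cerulein response of Pgf differed between Adam17ex and WT, by -2.90 ± 0.65 in the interaction term (edgeR adjusted p = 0.00967), as given above with the fits that lost it.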

How the results depend on the processing

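Each value named was recomputed under other settings. In WT the count of endothelial genes called under cerulein was 2 when scaled without digestive enzymes and 0 with DESeq2 or after thinning; leaving out 1 library gave 0 to 2. In Adam17ex it was 0 over females, after thinning and without Adam17ex PBS libraries 1 to 3, and 0 to 1 with 1 library left out. Between genotypes under cerulein it was 0 to 1 with 1 library left out, and under PBS 2 without sex as a covariate (Esam and Plvap) and 0 to 2 with 1 library left out.

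The sign turned for the following values, none of them called in the reported fit. Egfl7 in WT under cerulein, at -0.00, was 0.025 with RLE factors, 0.036 without digestive enzymes, 0.034 with no filter, 0.0089 at a minimum count of 3, 0.063 over females, 0.033 with DESeq2 and 0.013 without Adam17ex PBS libraries 1 to 3; Kdr there was -0.031 after thinning. In Adam17ex under cerulein, Flt1 was 0.025 with no filter, 0.66 over females, 0.13 after thinning and 1.01 without Adam17ex PBS libraries 1 to 3, Eng was 0.0050 with no filter and 0.59 without those libraries, and Esam was 0.19 over females. Eng between genotypes under cerulein was -0.34 over females, and under PBS -0.18 without Adam17ex PBS libraries 1 to 3. In the interaction, Esam was 0.094 over females, and without those 3 libraries Flt1 was 0.17, Plvap 0.35 and Eng 0.26. With 1 library left out, Kdr ran from -0.24 to 0.40 and Egfl7 from -0.30 to 0.17 in WT under cerulein, Flt1 from -0.45 to 0.23, Egfl7 from -0.49 to 0.030 and Eng from -0.43 to 0.16 in Adam17ex under cerulein, and Flt1 from -0.22 to 0.34 and Eng from -0.26 to 0.36 between genotypes under cerulein. The cause was not tested.

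Correlations between libraries do not settle whether the replicate numbers pair the mice. The 24 same-numbered pairs had a median of -0.00 (-0.21 to 0.23), and 5 were over 0.1. The 72 pairs with different numbers had a median of -0.01 (-0.25 to 0.22), and 7 were over 0.1. Between Adam17ex PBS and Adam17ex cerulein, same-numbered pairs had 0.15, -0.00, 0.11 and 0.23, and the highest pair of different numbers had 0.08. Of 16 libraries 6 correlated best with their own number. With a replicate block the counts called stayed at 1 in WT, where Flt1 (0.84) replaced Pecam1 (-1.21, edgeR adjusted p = 0.0594), 1 in Adam17ex and 0 in the others, and Eng between genotypes under cerulein was -0.081. With 48 to 440 UMIs per gene over 16 libraries, counting error limits every single gene here. The group without Adam17ex PBS libraries 1 to 3 has 1 mouse, assumed to vary like the other groups.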

Other observations

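Sox17, a transcription factor of arterial endothelium, was below the filter on low counts and is named here because of its values. It had 4, 6, 14 and 244 UMIs in Adam17ex PBS replicates 1 to 4 (10.4, 15.5, 28.1 and 246 CPM), against 1 to 6 UMIs in each of the other 12 libraries. The library with 244 was the lowest of its group for Kdr, Flt1 and Plvap. With Sox17 left out, the summed level of the other 25 endothelial genes was 151 to 203 CPM in Adam17ex cerulein, 249 to 456 CPM in Adam17ex PBS, 143 to 150 CPM in WT cerulein and 112 to 213 CPM in WT PBS.

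Lymphatic endothelial genes were scarce. Of 6, 2 were tested, and Ccl21a fell under cerulein in WT, with -1.83 on the log2 scale (edgeR adjusted p = 0.0347). With 1 library left out it ran from -3.12 to -1.18 and lost the call in 6 of 16 cases, and it was not called in 9 of 26 other fits in all, DESeq2 among them. Flt4, the receptor for VEGF-C, had 10 UMIs over the Adam17ex cerulein, 7 over the Adam17ex PBS, 6 over the WT cerulein and 3 over the WT PBS libraries, too few for a test, and is named after its values were seen. Klf4, a transcription factor induced by flow in endothelium and also expressed by epithelium, was higher in Adam17ex than in WT under cerulein by 1.01 ± 0.27 (edgeR adjusted p = 0.0195) and stood at 1.25 ± 0.33 under PBS (edgeR adjusted p = 0.0545). Leaving out 1 library lost the call under cerulein in 4 of 16 cases.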
